A study of Mus musculus with 6 samples.

Results

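The genes described here are 10 mouse regulators of oocyte gene expression, taken by name: the Obox homeobox genes Obox1, Obox2, Obox3, Obox5 and Obox6, the transcription factors Nobox, Figla, Lhx8 and Sohlh1, and Taf4b, a subunit of the general transcription factor TFIID. Their probes were all those whose gene name on the array, or an earlier symbol of the gene, was one of these names. They came to 10 of the 41174 non-control probes, for 8 of the 10 genes. Lhx8 and Taf4b had 2 probes each, and no probe was found by name for Obox2 or Sohlh1, which are not analysed here. The RNA came from B6C3 F1 mice and was hybridised to 6 single-colour arrays, 1 sample each. These were 2 arrays of climacteric blastocysts, 2 of young blastocysts, 1 of climacteric ooplasts and 1 of young ooplasts. An ooplast is an oocyte from which the chromosomes have been taken out, and a blastocyst is the embryo just before implantation. Climacteric females are those at the end of their reproductive life. The series title places the arrays in work on reprogramming by nuclear transfer, but the labels do not say how the blastocysts were made, give no age in weeks or months, and name no animals or pool sizes. The replicates are called biological, and p-values here measure only the spread between these samples.

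These genes act near the top of the oocyte's own gene programme. Figla and Sohlh1 are basic helix-loop-helix factors, which bind the E-box word CANNTG. Nobox is a homeobox factor and Lhx8 a LIM-homeobox factor, and in mice each is needed for early follicles to form or survive and for the expression of many oocyte genes. Taf4b stands in for its paralogue Taf4 in TFIID in the gonads. The Obox genes form a cluster of closely related homeobox genes in the mouse, are transcribed in oocytes or in early embryos, and have been tied in mice to the first transcription of the embryo's genome.

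Levels below are log2 of the processed spot signal minus the 75th percentile of the same array, so 0 is the signal that 75% of spots do not exceed. A probe was called well above background by the scanner software on each array separately. That was the case for 49.9% to 57.3% of spots in blastocysts, against 42.2% in climacteric and 42.4% in young ooplasts. The 75th percentile itself was 721 to 1111 signal units in blastocysts, against 238 in climacteric and 235 in young ooplasts. Probes not well above background had a median level of -6.04 to -5.39 in blastocysts, against -4.13 in climacteric and -4.30 in young ooplasts, so a probe at background in both stages takes a negative difference. By the brightest probe of each marker, the labelled tissues matched their markers. All 7 tested oocyte markers were lower in blastocysts (limma, adjusted p under the threshold of 0.05). All 6 trophectoderm and 5 inner cell mass or primitive endoderm markers were higher. Of these, 4 oocyte, 4 trophectoderm and 3 inner cell mass or primitive endoderm markers were measured throughout 1 stage only, so that they had to differ. The others, 3, 2 and 2 in that order, were measured on all arrays. Of all genes so measured, 43% were lower and 28.8% higher in blastocysts. Gata6 and Sox17, the 2 inner cell mass or primitive endoderm markers so measured, each had a dimmer probe that went the other way. These probes, also measured on all arrays, gave -1.52 (SE 0.27, limma adjusted p = 0.00243) for Gata6 and -0.82 (SE 0.26, limma adjusted p = 0.0262) for Sox17. In bulk samples fewer cells of a type and less RNA per cell cannot be told apart.

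Promoter sequences from RefSeq (GRCm38.p6, 250 bases before to 50 after the start) were matched by symbol for 8 of the 10 genes, Obox2 and Sohlh1 among them. They are shown because a run of 25 bases is shared by Obox1, Obox2, Obox3 and Obox5. It was chosen as the longest run identical in the 250 bases before the start of Obox1, Obox3 and Obox5. The run stood in 5 of 32851 promoters in the table (0.0152%), and the fifth was that of Obox7, another gene of the cluster. Since 3 of these promoters hold it by choice, the share is a description and not a test. Counted from the start, with negative numbers before it, the run lay from -98 to -74 in Obox1, -109 to -85 in Obox3, -110 to -86 in Obox5 and -84 to -60 in Obox7. In Obox2 it lay from -1 to 23, across the annotated start. The 150 bases just before the start of the 3 Obox genes with measured levels follow, 5′ to 3′ on the gene's strand, with that run in capitals. They are chr7:15547107-15547256 on the plus strand for Obox1, chr7:15639778-15639927 on the minus strand for Obox3 and chr7:15750220-15750369 on the plus strand for Obox5.
Obox1: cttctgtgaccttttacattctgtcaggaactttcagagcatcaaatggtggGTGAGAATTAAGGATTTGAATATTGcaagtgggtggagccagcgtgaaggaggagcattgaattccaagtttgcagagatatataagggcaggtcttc
Obox3: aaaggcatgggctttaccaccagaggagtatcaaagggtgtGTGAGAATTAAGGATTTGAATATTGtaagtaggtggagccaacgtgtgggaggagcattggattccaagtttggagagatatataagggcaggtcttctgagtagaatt
Obox5: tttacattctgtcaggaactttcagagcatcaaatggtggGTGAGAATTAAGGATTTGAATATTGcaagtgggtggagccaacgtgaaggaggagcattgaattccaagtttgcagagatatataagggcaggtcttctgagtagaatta

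Over the 250 bases before the start, Obox1 and Obox5 were 92.0% identical in a global alignment, Obox1 and Obox7 90.0%, Obox3 and Obox5 69.2%, and Obox1 and Obox3 65.6%. The other pairs among these promoters, taking in Nobox, Figla, Lhx8 and Sohlh1, give the floor of such an alignment: Obox3 and Figla shared 37.2%, and Nobox and Sohlh1 52.4%. Obox1 and Obox2 shared 51.6%, within that range, and Obox2 and Obox5 56.8%, above it. The windows were set by the annotated starts, and the run begins at -1 in Obox2 but at -98 in Obox1. The bases leading up to the run are the same in Obox1 and Obox2 at these shifted positions. The low shares of Obox2 therefore do not show that its sequence is unlike theirs. The same 150 bases of Nobox, chr6:43309555-43309704 on the minus strand, follow with their 2 E-box words in capitals, as a contrast to the Obox genes.
Nobox: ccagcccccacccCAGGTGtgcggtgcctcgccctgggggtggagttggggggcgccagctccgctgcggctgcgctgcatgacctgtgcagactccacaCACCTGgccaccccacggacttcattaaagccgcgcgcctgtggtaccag

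The E-box word CANNTG, which reads the same on both strands, occurred 2 times in the promoter of Nobox, 2 times in that of Obox1 and of Obox5, 4 times in that of Figla and of Obox2 and 5 times in that of Sohlh1. It did not occur in the windows of Obox3 and Lhx8. Of all 32851 promoters 72.3% hold it. The word TAATTG, which Nobox binds in mice, was sought on both strands and occurred in none of the 8 windows, and 8.0% of all promoters hold it. The related word TAATTA likewise occurred in none of the 8, and 5.29% of all promoters hold it. For TGATTG, a word bound by Lhx8, the 8 windows again had no match, against 14.0% of all promoters. These are matches of letters in a short window.

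In the files' build, mm8, the Obox probes lie in one stretch of chromosome 7. The Obox1 probe A_52_P157893 is at chr7:14502993-14503052, the Obox3 probe A_51_P481448 at chr7:14193815-14193874, the Obox5 probe A_52_P178963 at chr7:14916730-14917249 and the Obox6 probe A_51_P198453 at chr7:14993093-14993278. The Obox5 and Obox6 placements span 520 and 186 bases, where those of Obox1 and Obox3 span 60. The array's own annotation ties the Obox5 probe to a transcript of Obox3 as well, so its level may hold both genes. Nobox (A_52_P291083) is at chr6:43233334-43233393 and Figla (A_51_P326140) at chr6:85986535-85986594. The Lhx8 probes A_51_P298615 and A_52_P508827 are at chr3:154241706-154241765 and chr3:154242184-154242243. The Taf4b probes A_51_P248293 and A_51_P369091 are on chromosome 18, at positions 14926910 to 14939947, a span of 13038 bases, and 15043231 to 15043290. Exon and UTR positions of the probes are not given, since no mm8 genome was used.

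**Figure D1:**
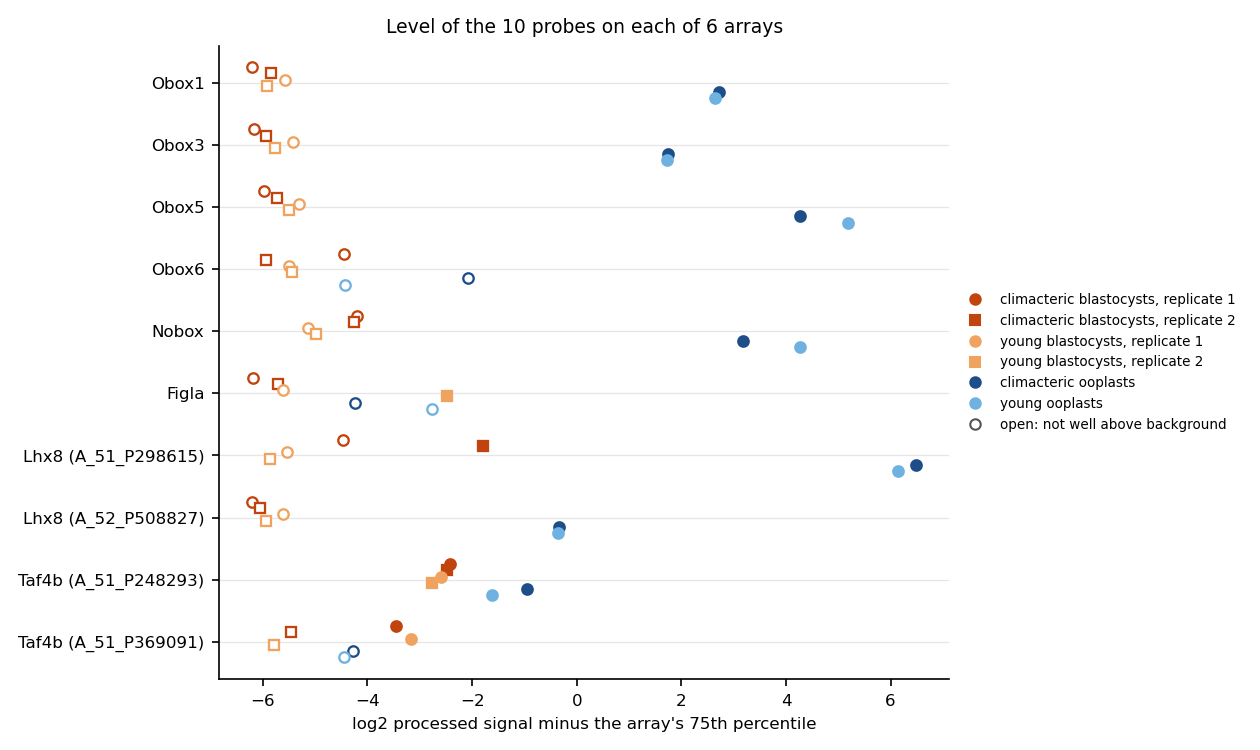
Level of each of the 10 probes on each array (x axis, log2 processed signal minus the array's 75th percentile). Colours give group and age, shapes the replicate, and open symbols mark arrays on which the probe was not well above background. The blastocyst points of Obox1, Obox3, Obox5, Nobox and Lhx8 lie far left of their ooplast points, whereas Taf4b (A_51_P248293) is filled on all 6 arrays.

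Obox1, Obox3, Obox5, Nobox and Lhx8 were well above background in both ooplast samples and, but for 1 Lhx8 value, in no blastocyst sample. Obox1 stood at -6.20 and -5.84 in climacteric blastocysts and -5.58 and -5.92 in young blastocysts, all not well above background, against 2.71 in climacteric and 2.65 in young ooplasts. At these scaled levels it was at least 82.4-fold lower in blastocysts. Obox3 stood at -6.16 and -5.94 in climacteric and -5.42 and -5.78 in young blastocysts, against 1.74 in climacteric and 1.73 in young ooplasts, at least 42.8-fold lower in blastocysts. The blastocyst values of both genes lie where dim probes lie.

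Obox5 stood at -5.98 and -5.72 in climacteric and -5.31 and -5.51 in young blastocysts, against 4.27 in climacteric and 5.18 in young ooplasts. It was at least 340-fold lower in blastocysts. In these bounds the blastocyst level is, on each array, the higher of the probe's own value and the dimmest value called well above background, -3.97 to -3.36. Obox6 was not well above background on any array. Its values were -4.45 and -5.93 in climacteric blastocysts, -5.51 and -5.44 in young blastocysts, -2.08 in climacteric ooplasts and -4.42 in young ooplasts. No difference of Obox6 was detectable at this signal, and it was not tested.

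Nobox stood at -4.20 and -4.26 in climacteric and -4.97 and -5.13 in young blastocysts, none well above background, against 3.18 in climacteric and 4.27 in young ooplasts. It was at least 170-fold lower in blastocysts. Lhx8 read -4.47 and -1.79 in climacteric and -5.55 and -5.87 in young blastocysts on A_51_P298615, against 6.49 in climacteric and 6.13 in young ooplasts. Only the value of -1.79, in replicate 2 of the climacteric blastocysts, was well above background, with a signal of 247 units against 15.4 to 47.9 units in the other blastocysts.

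The second Lhx8 probe, A_52_P508827, did not show that value. It read -6.20 and -6.05 in climacteric and -5.61 and -5.94 in young blastocysts, against -0.34 in climacteric and -0.35 in young ooplasts, at least 10.1-fold lower in blastocysts. The 2 probes of Lhx8 so gave the same order of stages and differed in whether that 1 blastocyst sample was above background.

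For the difference between stages, the 6 arrays were fitted together with age as a term, blastocysts minus ooplasts, over 20965 probes that all arrays of 1 or more of the compared groups called well above background. In this fit 38.2% of the probes were lower in blastocysts at an adjusted p under 0.05. Of the 10 probes 7 were tested, and all 7 passed on the lower side. Of these, 6 entered only through the ooplast arrays, where they are high, so that they had to differ. Neither their number nor their p-values carry weight, and the bounds above stand in place of fitted differences. Within slide 1, which held both ooplast samples and 1 sample of each blastocyst group, no blastocyst value of these 6 probes was well above background. The samples of slide 2 were blastocysts only.

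Figla, the factor that switches on the zona pellucida genes in mouse oocytes, did not share the pattern of the other factors. It stood at -6.19 and -5.70 in climacteric blastocysts, -5.62 and -2.49 in young blastocysts, -4.24 in climacteric ooplasts and -2.77 in young ooplasts. It was well above background on 1 array, that of replicate 2 of the young blastocysts, where its signal was 198 units against 14.5 to 16.4 units in the other 3 blastocyst samples. It was not well above background in ooplasts, where its signal was 12.6 units in climacteric and 34.6 units in young ooplasts, and it was not tested.

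Taf4b was the only one of these genes measured in both stages. Its probe A_51_P248293 was well above background on all 6 arrays, at -2.42 and -2.48 in climacteric blastocysts and -2.59 and -2.76 in young blastocysts, against -0.95 in climacteric and -1.61 in young ooplasts. All 4 blastocyst values lie below both ooplast values, and 43% of all genes measured on all arrays passed as lower in blastocysts. The difference was -1.28 (SE 0.26, limma adjusted p = 0.00437), 2.43-fold lower in blastocysts, beside a median of -0.57 over the 10749 genes measured on all arrays. Within slide 1 it was -1.23 (SE 0.40, limma adjusted p = 0.0474). The fall is relative to each array's 75th percentile, and at background signal that scaling by itself gives a negative difference. Over probes well above background on no array the median difference was -1.50. The signal of this Taf4b probe is low, and how far the scaling enters its difference was not tested. Unscaled, the signal was 199 and 153 units in climacteric and 120 and 164 units in young blastocysts, against 123 units in climacteric and 77.0 units in young ooplasts.

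The second Taf4b probe, A_51_P369091, gave another picture. It read -3.45 and -5.45 in climacteric blastocysts, -3.16 and -5.78 in young blastocysts, -4.28 in climacteric ooplasts and -4.44 in young ooplasts. It was well above background on replicate 1 of both blastocyst groups, which share slide 1, and on no other array, ooplasts on that slide included. It was not tested. The difference between the slides in this probe was larger than that between the ages, -0.29 in slide 1 and 0.33 in slide 2 (climacteric minus young blastocysts).

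TFIID carries the TATA-binding protein and its associated factors to promoters, and Taf4b is 1 of its alternative subunits. The other subunits and the TATA-binding protein's relatives, 17 genes with 1 probe each, were set beside it. Of the 17, 14 fell and 1 rose in blastocysts, where over all 15547 genes tested 38.6% fell and 35.4% rose. Of the 14, Taf9b entered only through the ooplast arrays and so had to be lower in blastocysts. Taf2 entered only through the blastocyst arrays and yet fell, at -1.29 (SE 0.43, limma adjusted p = 0.0315). As with Taf4b, how far the scaling enters the differences of dim subunits was not tested. Among the 15 measured on all arrays 12 fell and 1 rose, against 43% and 28.8% of all such genes. The median difference of the 17 was -1.91, and that of all genes tested was -0.25. Without the climacteric ooplast sample 8 fell, within slide 1 the number was 9, and without replicate 1 of the climacteric blastocysts 2 rose.

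Taf9b, a paralogue of Taf9, stood at -6.07 and -5.83 in climacteric and -5.50 and -5.73 in young blastocysts, none well above background, against 5.06 in climacteric and 4.94 in young ooplasts, at least 412-fold lower in blastocysts. Taf9 itself did not pass the test, at -0.62 (SE 0.26, limma adjusted p = 0.0716). Among subunits measured on all arrays, Taf8, Taf3 and Taf5 fell most, with log2 differences of -4.71 (SE 0.55), -4.53 (SE 0.61) and -3.86 (SE 0.40). Dimmer Taf5 probes measured on all arrays gave smaller differences, -1.60 (SE 0.60) and -0.73 (SE 0.31), and the latter did not pass (limma adjusted p = 0.0672). The ooplast samples were far apart for Taf8, at 4.23 in climacteric and 7.04 in young ooplasts, and for Taf3, at 1.43 in climacteric and 4.20 in young ooplasts. The dimmer Taf3 probe A_52_P132028 showed no such gap, at -0.30 in climacteric and -0.06 in young ooplasts. Leaving out 1 ooplast sample put Taf8 between -5.91 and -3.52 and Taf3 between -5.87 and -3.20, and without the young sample Taf5 had the largest of the 3 differences, -4.41. Taf4, the paralogue of Taf4b used in most tissues, stood at 4.53 and 4.98 in climacteric and 5.09 and 4.87 in young blastocysts, against 8.10 in climacteric and 7.74 in young ooplasts. Taf4 fell by 3.05 (SE 0.29) on the log2 scale (limma adjusted p = 0.000148).

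Tbpl1, a relative of the TATA-binding protein, was the only 1 of the 17 to rise, by 1.59 (SE 0.29, limma adjusted p = 0.00283). Its values were 5.10 and 5.76 in climacteric and 5.56 and 5.49 in young blastocysts, against 3.93 in climacteric and 3.85 in young ooplasts. Tbpl2, the relative that takes the place of TBP in growing mouse oocytes, fell by 1.00 (SE 0.35, limma adjusted p = 0.0376). Its unscaled signal was low, 232 and 296 units in climacteric and 216 and 250 units in young blastocysts. In climacteric ooplasts it was 174 units and in young ooplasts 91.9 units. How far the scaling enters the fall of Tbpl2 was not tested. Taf11 did not pass the test, at 0.69 (SE 0.35, limma adjusted p = 0.118).

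**Figure D2:**
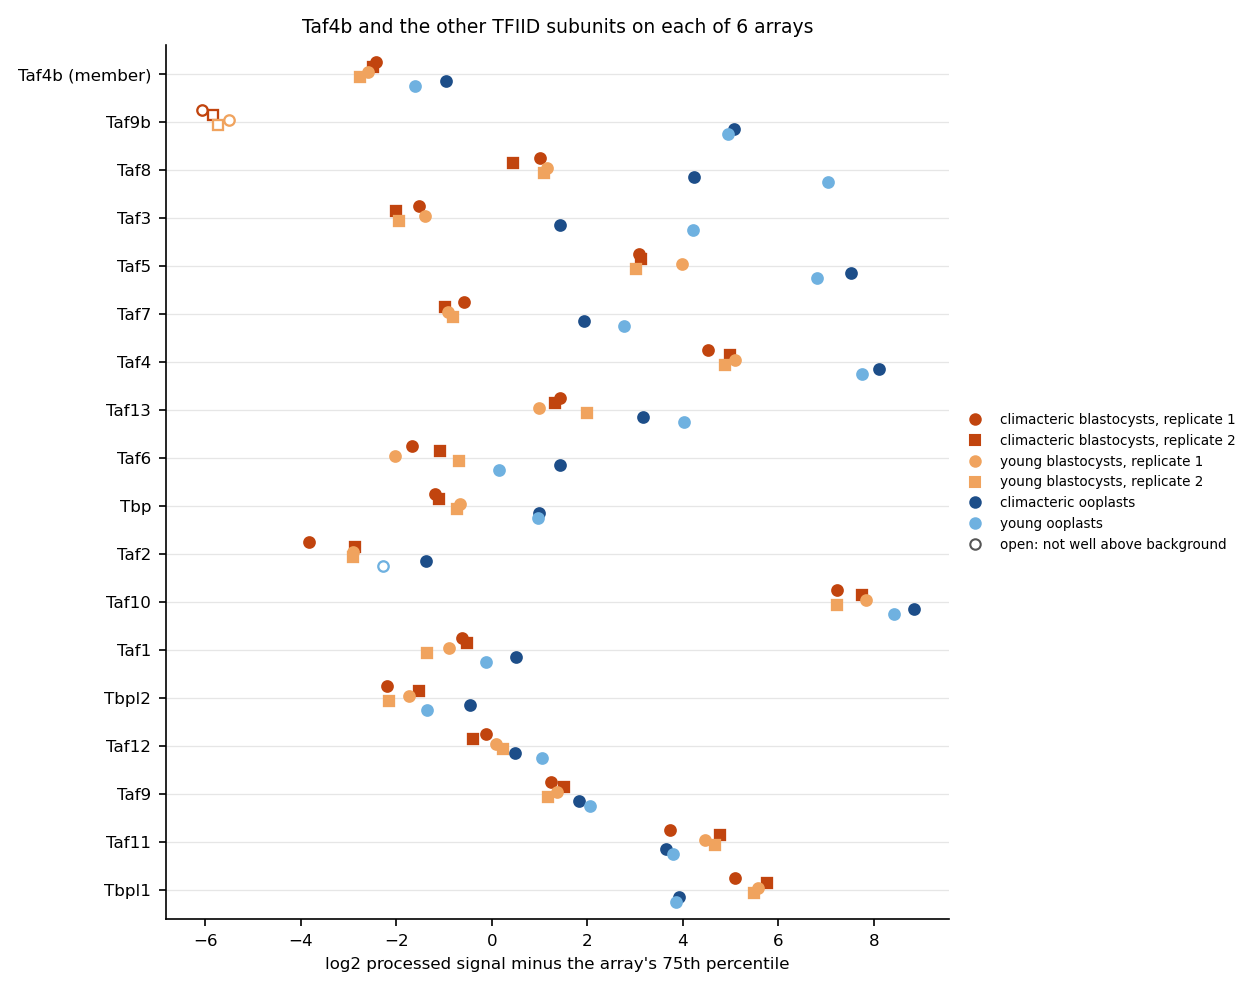
Level of Taf4b (probe A_51_P248293) and of the 17 other genes of TFIID and its relatives on each of the 6 arrays (x axis, log2 processed signal minus the array's 75th percentile), ordered by the difference between stages, with open symbols where a probe was not well above background. Taf9b is open in all 4 blastocyst samples, and Tbpl1 at the bottom has its blastocyst points right of its ooplast points.

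Other regulators that act with or beside these factors were measured through 11 of 13 genes named for this. Of the 11, 10 fell and none rose in blastocysts, against 38.6% and 35.4% of all genes tested, with a median difference of -2.71. Of the 9 measured on all arrays 8 fell, against 43% of all such genes, with a median of -2.68. Of the 10, 2 (Gtf2a1l and Obox7) entered only through the ooplast arrays and so had to be lower in blastocysts. Gtf2a1l, the germ cell relative of the TFIIA subunit, stood at -2.95 and -2.73 in climacteric blastocysts, -4.71 and -5.76 in young blastocysts, 5.89 in climacteric and 6.03 in young ooplasts. Both climacteric blastocyst values were well above background and neither young value was. Foxo1, a forkhead factor, fell by 5.36 (SE 0.33) and Tcf3, an E-protein of the helix-loop-helix class that can pair with tissue factors such as Figla, fell by 3.87 (SE 0.37). Sohlh2, the partner of Sohlh1, stood at 0.16 and -0.37 in climacteric and -0.56 and -0.55 in young blastocysts, against 2.81 in climacteric and 1.94 in young ooplasts, and fell by 2.71 (SE 0.29).

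Obox7, whose promoter holds the run shown above, stood at -3.32 and -4.42 in climacteric and -3.92 and -3.87 in young blastocysts, against 4.12 in climacteric and 4.22 in young ooplasts. Of the 4 blastocyst values 1, in replicate 1 of the climacteric samples, was well above background. The probes of Obox1, Obox3, Obox5 and Obox7, the genes of the run that have one, were well above background in both ooplast samples, as were 37.7% of all probes, and that of Obox5 may also measure Obox3. Nr5a2, a nuclear receptor of the early embryo, did not pass the test, at 0.18 (SE 0.26, limma adjusted p = 0.55).

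Genes that oocytes express and that mouse work has tied to these factors were measured through 18 genes. Of the 17 tested, 16 fell and none rose in blastocysts, beside the 38.6% and 35.4% of all genes tested. Of the 17, 7 entered only through the ooplast arrays and so had to be lower in blastocysts. Of the 10 measured on all arrays 9 fell, against 43% of all such genes, with a median difference of -6.04. Zar1, a maternal-effect gene, was at least 3464-fold lower in blastocysts, and Rfpl4 at least 1088-fold. Oosp1, an oocyte-secreted protein, stood at -1.91 and -1.90 in climacteric and -4.49 and -0.66 in young blastocysts, against 10.99 in climacteric and 11.13 in young ooplasts, and was well above background in 3 of the 4 blastocyst samples. Bmp15, a growth factor the oocyte sends to its follicle cells, stood at -6.24 and -4.99 in climacteric and -3.85 and -2.69 in young blastocysts, against 6.79 in climacteric and 6.69 in young ooplasts, and was well above background in 1 of the 4 blastocyst samples. Pou5f1, a pluripotency factor of both oocyte and inner cell mass, did not pass the test, at 0.25 (SE 0.39, limma adjusted p = 0.579).

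Genes of the 2-cell stage, the time of genome activation in the mouse embryo, were looked at through 17 names. Of these, 10 had a probe and 7 were tested, of which 5 rose and 1 fell in blastocysts, beside the 35.4% that rose and 38.6% that fell of all genes tested. Of the 3 measured on all arrays 1 rose and 1 fell. Of the 5, 4 entered only through the blastocyst arrays and so had to be higher there. Eif1a, a translation initiation factor, was at least 141-fold higher in blastocysts, Dppa4 at least 2.35-fold and Usp17la, a deubiquitinase, at least 4.58-fold. Tdpoz1 has no such bound, since its blastocyst values, -2.36 and -3.16 in climacteric and -2.16 and -1.69 in young blastocysts, lie about where the ooplast arrays stop reading above background. Of the genes measured on all arrays Eif1ad rose by 2.66 (SE 0.25) and Dppa2 fell by 2.04 (SE 0.25). The Eif1a probe of the bound is placed on chromosome 18, and another probe of that name on chromosome 12. The latter read 1.24 in replicate 1 of the climacteric blastocysts, against -2.63 in replicate 2, and -2.17 and -2.68 in young blastocysts. It did not pass the test for stage (limma adjusted p = 0.0595). Without the young ooplast sample 3 rose, and Usp17la no longer passed (adjusted p = 0.139). Zscan4c, a marker of the 2-cell state, read 3.54 in replicate 1 of the climacteric blastocysts, against -2.75 in replicate 2 of that group, -2.82 and -2.65 in young blastocysts, -1.32 in climacteric ooplasts and -1.96 in young ooplasts. Without that replicate the list had 2 genes that fell in place of 1. In that replicate no probe of Obox1, Obox3, Obox5, Obox6, Nobox or Lhx8 was well above background, and the Obox7 probe was.

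**Figure D3:**
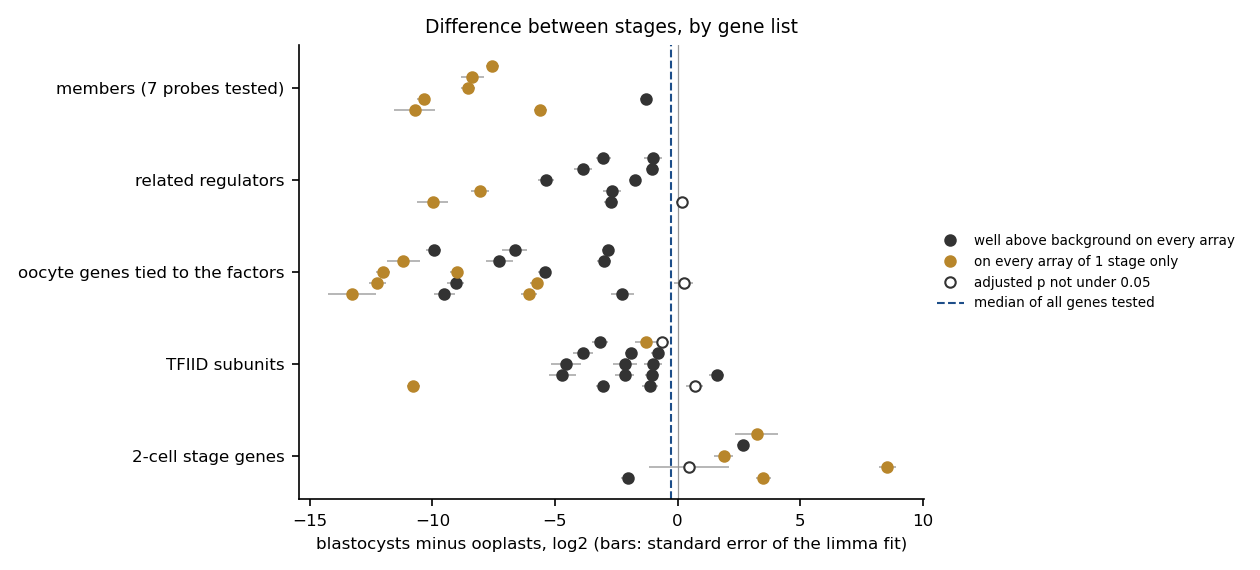
Blastocysts minus ooplasts on the log2 scale (x axis, bars are the standard error of the limma fit) for the tested probes of the genes described and of 4 lists. Ochre points entered through 1 stage only, which sets most of them to be higher in that stage. Taf2 is an exception, since it entered through the blastocyst arrays and was lower there. Open points did not pass the test, and the dashed line is the median of all genes tested, -0.25. Only the genes of the 2-cell stage lie mostly right of that line.

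**Figure D4:**
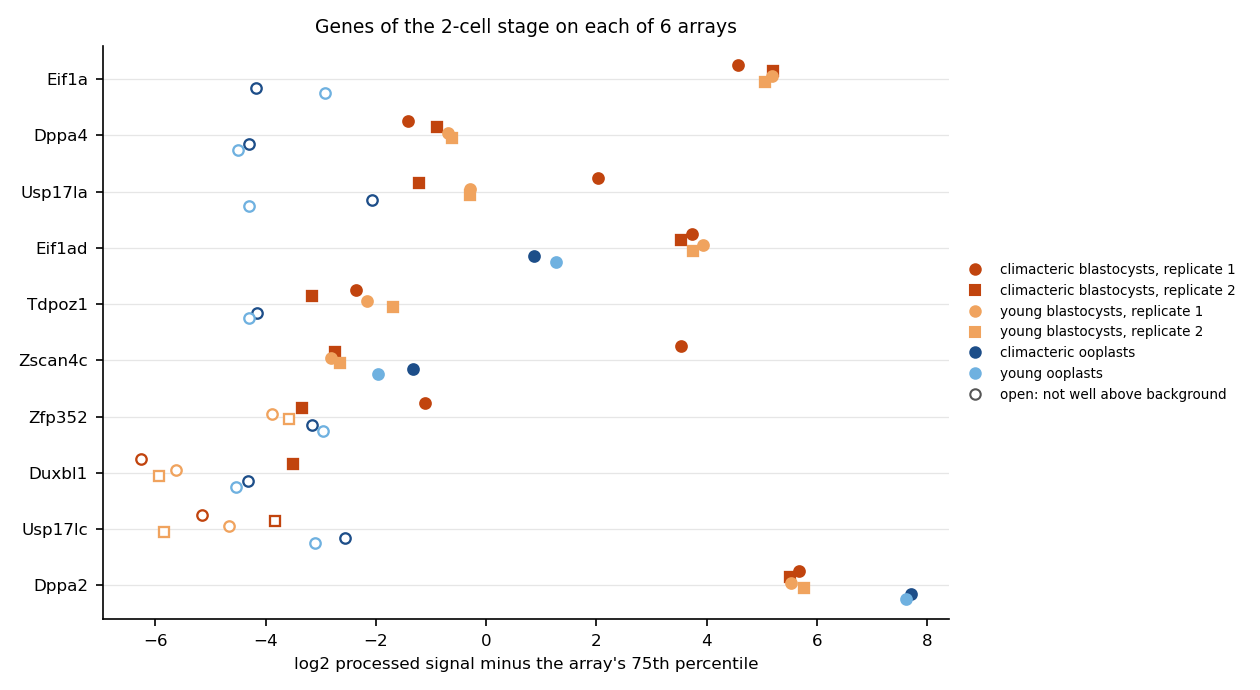
Level of the 10 measured genes of the 2-cell stage on each of the 6 arrays (x axis, log2 processed signal minus the array's 75th percentile), with open symbols where a probe was not well above background. In replicate 1 of the climacteric blastocysts Zscan4c read 3.54 and Usp17la 2.02, each right of the other 3 blastocyst samples.

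Whether these genes differ between the labelled ages, climacteric and young, was asked separately in each stage. Among blastocysts, climacteric against young, 0% of 21629 probes passed limma's test, while 1211 had an unadjusted p under 0.05. Taf4b was the only one of the 10 genes with a probe tested there. It averaged -2.45 ± 0.04 in climacteric and -2.68 ± 0.12 in young blastocysts (SD, n = 2 each), a difference of 0.23 (SE 0.29, limma adjusted p = 1.00). The difference was 0.17 in slide 1 and 0.29 in slide 2. In the 4 lists, none of the 10, 11, 16 and 8 genes tested for age passed (in the order regulators, oocyte genes, TFIID, 2-cell stage). Gtf2a1l had the lowest p among the regulators, with a difference of 2.40 (unadjusted p = 0.00243, limma adjusted p = 0.464) and both climacteric values well above background and neither young value.

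Between the ooplast samples, 1 array for each age, no test was possible. Over the 15506 probes well above background on both, 17.3% were at least 2-fold apart, and 1 of the 7 such probes of these genes was, that of Nobox. Nobox was 2.14-fold lower in climacteric ooplasts, 2152 signal units against 4556 units in young ooplasts, a log2 difference of -1.10. Obox5 was 1.87-fold lower, with a difference of -0.91. Of the 15506 probes, 14.4% differed by as much as Nobox.

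Taf4b was higher by 0.66 and Lhx8 by 0.36 on A_51_P298615 in climacteric ooplasts. Obox1, Obox3 and the second Lhx8 probe were close in the 2 samples, with differences of 0.06, 0.01 and 0.01. The median over all probes was 0.14. Under quantile normalization the median was 0.23, Nobox came to -0.77 and Obox5 to -0.49, and in the authors' deposited values they came to -0.73 and -0.43.

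Markers of the follicle cells around the oocyte were also compared between these 2 samples. The summed level of 13 cumulus and granulosa genes, in multiples of each array's 75th percentile, was 95.8 in climacteric and 441 in young ooplasts, against 22.3 to 28.8 in blastocysts. Most of that gap was 1 probe of Inha, and without Inha the sum was 88.8 in climacteric and 93.1 in young ooplasts. Of the 7 well above background in both ooplast samples, 2 were at least 2-fold apart, as were 17.3% of all probes so measured. The 2 were Inha, the inhibin alpha subunit, at 2.80 in climacteric and 8.44 in young ooplasts, and Tnfaip6, at -1.03 in climacteric and 1.15 in young ooplasts. A second Inha probe showed no such gap, at -0.41 in climacteric and -0.58 in young ooplasts. Amh stood at 2.54 in climacteric and 2.12 in young ooplasts, Ptx3 at 1.84 in climacteric and 1.34 in young ooplasts, and Cyp19a1 at 6.22 in climacteric and 6.30 in young ooplasts. Other probes of Ptx3 and Cyp19a1 were well above background on no array. The Ptx3 probe with these values is placed on the minus strand and the other Ptx3 probes on the plus strand. Kitl, Fshr and Has2 were not well above background in either ooplast sample. The part of such cells in the Nobox and Obox5 differences was not tested.

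**Figure D5:**
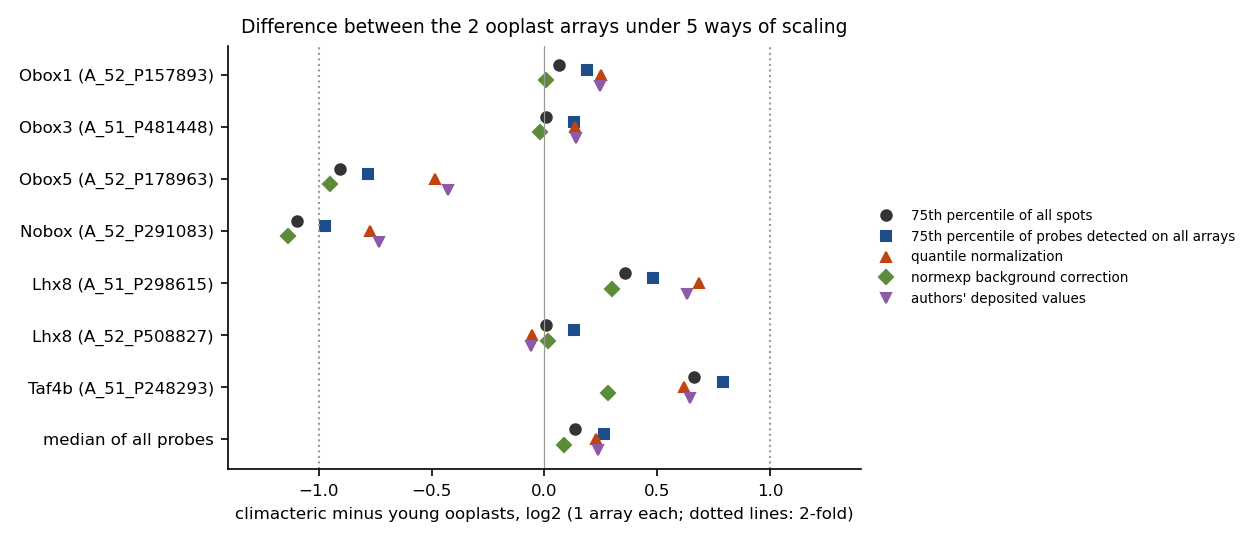
Climacteric minus young ooplasts on the log2 scale (x axis) for the 7 probes well above background on both ooplast arrays and for the median of all such probes, under 5 ways of scaling the arrays, with dotted lines at 2-fold. Nobox and Obox5 lie left of 0 under all 5, and Nobox passes a dotted line under 2 of the 5.

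Taf4b's profile over the 6 arrays was compared with that of all 13354 probes well above background on every array, each profile centred on its own mean. The 3 named genes nearest to it were Fam169a, Disp3 and Cldn19, a protein of tight junctions, at root-mean-square distances of 0.04, 0.05 and 0.05 on the log2 scale. Fam169a, for example, stood at -0.31 and -0.37 in climacteric and -0.38 and -0.65 in young blastocysts, against 1.24 in climacteric and 0.52 in young ooplasts. The likeness rests on 6 samples and chiefly on the step between stages.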

How the data were processed

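Per the labels' protocols, column-purified total RNA that had no DNase step was amplified and then labelled with Cy3. Spot intensity came from Agilent Feature Extraction (version 9.5 in the submitters' processing notes). The processed signal as deposited had its background subtracted per the file headers, was left unscaled between arrays, and its probes were placed on mm8. A value table the authors deposited gives log2 values with a median of 6.25 in each column, ranks its probes as the matching array does, and served as an alternative.

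The 75th percentile that was subtracted is that of an array's non-control spots, and outlier spots were left out of a probe's mean. Names and promoters came from RefSeq tables of GRCm38.p6. Of 41174 probes, accessions named 24375, the symbol was current for 6301, an older symbol was updated for 2426, and 8072 have the name in the file. limma 3.58.1 in R 4.3.3 was run per probe (lmFit, eBayes, two-sided, Benjamini-Hochberg over all probes, threshold 0.05) on probes that every array of 1 or more compared groups called well above background. Stage was fitted on 6 arrays with age as a term, and age on the 4 blastocyst arrays. The test was checked on simulated data. A gene in a list stands for its brightest probe over the 6 arrays. Per list, up to 4 genes past the threshold with the largest difference in each direction were named by rule. Sohlh2, Taf2, Taf4, Tbpl2, Taf9, Taf11, Nr5a2, Pou5f1, Tdpoz1, Zscan4c, Gata6, Sox17, Inha, Tnfaip6, Amh, Ptx3 and Cyp19a1 were named after their values were seen. The genes and lists were chosen with earlier results of these data known.

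The 2 slides coincide with the replicate numbers. Deviations of same-numbered blastocyst samples correlated at 0.19, and with 2 pairs this does not settle whether the numbers pair them. The alternatives tried were quantile normalization, the 75th percentile of detected probes, normexp with an offset of 50, the deposited values, no filter and a stricter one, a slide block, 1 probe per gene, slide 1 only, and leaving out each array. The number of arrays limits the precision.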

Additional observations from a re-analysis of the deposited data

Results flagged for a closer look

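Over the 4 blastocyst samples, 65 probes of these genes and lists were checked for a sample standing far from the other 3, and 5 such samples were found, where chance gives about 1 in 20. Figla read -2.49 in young blastocysts replicate 2, against -6.19 and -5.70 in climacteric blastocysts and -5.62 in young blastocysts replicate 1. Zp2, a zona pellucida gene, read -1.71 in young blastocysts replicate 1, against -6.25 and -6.09 in climacteric blastocysts and -5.95 in the other young sample. In each of these 2 genes the high value was the only blastocyst value well above background.

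Zscan4c read 3.54 in climacteric blastocysts replicate 1, 72.6-fold above the next blastocyst sample, and was well above background in all 4. Taf2 read -3.82 in the same sample, against -2.85 in climacteric blastocysts replicate 2 and -2.90 in both young samples. Taf5 read 3.99 in young blastocysts replicate 1, against 3.07 and 3.12 in climacteric blastocysts and 3.02 in the other young sample.

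Some list genes measured on all 6 arrays had an age difference of 1 sign over all 4 pairs of blastocyst samples. Of these, 2 had the opposite sign in ooplasts. Other list genes with opposite signs in the stages, such as Gtf2a1l, did not meet this rule. For the 2, the difference between stages was not tested. Both their ooplast values lie below the median of all probes there, 0.14, so their sign depends on the scaling. H1f8, the oocyte linker histone, was 0.06 higher in climacteric than in young ooplasts, and its climacteric minus young difference in blastocysts was -1.18 to -0.45 over the 4 pairs of samples. Tbp, the TATA-binding protein, was 0.02 higher in climacteric than in young ooplasts, and its difference in blastocysts was -0.53 to -0.37.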

How the results depend on the processing

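Taf4b, the only one of these genes measured in both stages, kept its direction and its side of the threshold for stage under each alternative run, from -1.50 to -1.07, with an adjusted p of up to 0.0485 (without the climacteric ooplasts). The other 6 tested probes had to differ, so their stability carries no weight. Their differences were smallest in size under normexp, where they fell short of the bounds given. A filter on every array left 1 of the 7 past the threshold, Taf4b, because the other 6 were no longer tested, and 9772 probes in all, against 15469 as reported. With no filter 29232 probes passed, and 8 of these genes' 10 probes, Obox6 being added at -2.08 (adjusted p = 0.0195), a difference between values at background. Leaving out 1 array gave 13331 to 15210 probes and 7 of the 7 each time. With slide and replicate number as a block 14291 probes passed for stage, 7 of the 7 among them, and 0 for age in blastocysts. The count for age was 0 under each alternative run. Among the ooplasts, the 1 probe at least 2-fold apart (Nobox) became 0 under quantile normalization, 0 with scaling on probes detected on all arrays and 0 in the deposited values, and 3 with no filter on dim probes, where values at background were counted. Usp17la lost its call under normexp (1.15, adjusted p = 0.173), where 3 genes of the 2-cell stage rose in place of 5 and 2 of TFIID in place of 1. Without climacteric blastocysts replicate 1, 2 genes of TFIID rose. The median stage difference of the 20965 probes was -0.22 as reported, -0.43 with scaling on detected probes, -0.41 with normexp and -0.09 in the deposited values. The causes of these shifts were not tested. Among the limits, the blastocyst levels of 5 genes are bounds or mostly at background, Obox6 and Figla had no tested level, and the ooplast groups have 1 array each.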
